A study of Mus musculus with 12 samples.

Results

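The 8 genes Ermn, Cbr2, Krt8, Krt18, Muc2, Reg3g, Hes1 and Notch2 were described here as structural, secretory and Notch-related markers of sustentacular cells, the supporting cells of the main olfactory epithelium (MOE). Members were the rows of the deposited table whose platform gene symbol was 1 of these names. Each gene had 1 probe set, the set of short probes that measures a transcript, so 8 probe sets were taken from 28944 experimental probe sets, and from 19938 genes that had a probe set with a single symbol. RNA came from freshly dissected whole MOE of mice aged 6 months, with 6 arrays of H2be-KO and 6 of WT, each holding RNA from 2 mice. Both sexes were used. In H2be-KO mice the coding sequence of H2be, a histone H2B gene of olfactory neurons, is replaced by one for membrane-bound GAP43-mCherry, and founders were crossed to C57Bl/6. The allele therefore also adds a reporter, WT mice carry the intact gene, and no further treatment was given to either group. The aim of the comparison was to ask what loss of H2be does to transcripts of the whole tissue, and the genes below are known mainly from cells other than those known for H2be.

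Sustentacular cells are columnar and span the epithelium. Their microvilli and nuclei form its apical layer, they insulate the neurons from each other, and they are rich in enzymes that handle odorants and toxins. Notch receptors are cut by ADAM proteases and then by gamma-secretase once a Delta or Jagged ligand binds, and the released domain joins RBPJ and Mastermind proteins on DNA to switch on genes such as Hes1. HES1 in turn binds N-box sites and represses the genes that drive neuronal fate. Notch2 is known as a receptor of mouse sustentacular cells.

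Signals are deposited log2 values, so a difference of 1 is a 2-fold difference. The 12 arrays had medians of 7.84 to 7.90 and correlated with each other at 0.951 to 0.985. H2be itself, annotated as H2bc21, had a mean of 11.65 ± 0.12 (SD) over the H2be-KO arrays, below the 11.89 ± 0.17 of WT (exact permutation p = 0.0195, n = 6 each). Where its probes lie relative to the replaced sequence was not analysed here. Replicates 1 to 3 of both genotypes carried Xist, the X-inactivation transcript, at 11.4 to 11.7, whereas replicates 4 to 6 read 3.89 or less, and the Y-linked Uty ran the other way, at 1.40 to 3.99 and at 9.30 to 9.81. WT replicates 4 and 6 had the lowest array weights in limma, 0.406 and 0.393, and Amelx, an enamel gene, was at 11.87 and 11.66 in H2be-KO replicates 1 and 6. The 9 other sustentacular markers tested had a mean of 11.74 to 11.90 over the list in the H2be-KO arrays and 11.68 to 11.83 in the WT arrays. Signal of sustentacular markers outside the members was thus present in every array. How specific each marker is to the cell type was not tested, and Cyp2f2 is also in the respiratory epithelium list used below. In whole tissue, fewer cells of a type and less RNA per cell cannot be told apart.

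Promoter sequence is shown for Krt8, Krt18 and Reg3g, because these were the members whose signals moved most closely together over the arrays (described below). A promoter sequence, from 250 bases before to 50 bases after the start, was available here for 7 of the 8 members on GRCm38.p6. The one missing was that of Hes1, which was therefore not searched. The search was for TGGGAA, the core of RBPJ sites, and for CACNAG, the N-box of HES proteins, on both strands. Both are in capitals below, and on the opposite strand they read TTCCCA and CTNGTG. Krt8 lies at chr15:102004293-102004592 on the minus strand, Krt18 at chr15:102027966-102028265 on the plus strand, and Reg3g at chr6:78468825-78469124 on the minus strand.
Krt8: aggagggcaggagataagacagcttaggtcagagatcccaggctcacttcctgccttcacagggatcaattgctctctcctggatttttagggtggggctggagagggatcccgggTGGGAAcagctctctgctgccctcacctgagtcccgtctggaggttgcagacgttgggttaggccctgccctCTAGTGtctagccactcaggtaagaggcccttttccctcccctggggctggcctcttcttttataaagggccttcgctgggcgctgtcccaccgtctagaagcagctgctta
Krt18: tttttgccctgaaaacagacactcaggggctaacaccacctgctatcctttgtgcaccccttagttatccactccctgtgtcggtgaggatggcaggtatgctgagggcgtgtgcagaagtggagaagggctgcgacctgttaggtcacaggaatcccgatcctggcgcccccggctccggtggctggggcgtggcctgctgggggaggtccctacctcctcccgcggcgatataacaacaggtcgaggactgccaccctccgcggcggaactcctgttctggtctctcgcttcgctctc
Reg3g: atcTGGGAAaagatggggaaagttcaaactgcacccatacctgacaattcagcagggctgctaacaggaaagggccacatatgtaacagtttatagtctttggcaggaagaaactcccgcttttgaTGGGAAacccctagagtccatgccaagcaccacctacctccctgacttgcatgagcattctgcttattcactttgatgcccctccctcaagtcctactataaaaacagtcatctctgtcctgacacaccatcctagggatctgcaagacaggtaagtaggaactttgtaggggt
Krt8 held TGGGAA at 134 bases and the N-box at 62 bases before its start. Reg3g held TGGGAA at 247 and at 124 bases before its start, and Krt18 held neither motif in this window. TGGGAA was found in 4 of the 7 promoters (Ermn, Cbr2, Krt8 and Reg3g) and in 25.6% of all 32851 promoters of this length, and it occurred 2 or more times in 3.79% of them. CACNAG was found in 4 of the 7 (Cbr2, Krt8, Muc2 and Notch2) and in 42.5% of all promoters. No match overlapped another. These are matches of letters and not measured binding.

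None of the 8 members passed the test between H2be-KO and WT. All 8 passed the filter of a mean signal above 5, the lowest at 9.74, and 0 of 8 were called higher and 0 of 8 lower at an unadjusted limma p under 0.05, against 3.78% of the 28151 tested probe sets called higher and 1.77% called lower. By the exact permutation test over samples 0 of 8 passed as well. Differences were positive in 4 of 8, and their median was -7.4e-05, beside 0.023 over all tested probe sets. The members' adjusted p in limma ran from 0.753 to 0.997. No probe set of the array passed after adjustment in limma, the smallest value being 0.572, although 1065 were higher and 498 lower before it (1121 and 572 by the exact test). The balance of these calls depended on scaling, since 68.1% of them were higher as deposited, 58.5% after median centring (896 higher, 635 lower) and 47.9% after quantile normalization (828 higher, 899 lower).

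Ermn encodes ermin, an actin-binding protein related to the ezrin family and known from oligodendrocytes. In the H2be-KO arrays, replicates 1 to 6, it read 10.22, 10.21, 10.26, 10.20, 10.22 and 10.35. The WT arrays read 10.07, 10.11, 10.19, 9.69, 10.12 and 10.39. WT replicate 4 was the lowest and WT replicate 6 the highest of all 12, so every H2be-KO array lay within the WT range. The means were 10.24 ± 0.06 and 10.10 ± 0.23 (SD, n = 6 each), a difference of 0.15 with a standard error of 0.10, the largest among the members (95% interval -0.07 to 0.36, exact permutation p = 0.149). It moved with single WT arrays, to 0.07 without WT replicate 4 and to 0.21 without WT replicate 6, where limma's unadjusted p was 0.0431. That was the only setting in which any member passed. The 6 oligodendrocyte genes tested had a mean over the list of 7.05 to 7.28 in H2be-KO and 7.11 to 7.36 in WT, and 0 of 6 passed in either direction.

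Among 8 genes of the apical actin cytoskeleton, which were the ezrin family (Ezr, Rdx and Msn) and microvillar scaffold, bundling and adhesion genes, 0 passed in either direction, and the median difference was 0.03. The named members of smallest p were Msn (moesin) with a difference of 0.08, Ezr (ezrin) with -0.05, Slc9a3r1 with -0.03 and Cdhr2, a cadherin of microvilli, with 0.05.

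Krt8 and Krt18 encode a type II and a type I keratin that pair into the intermediate filaments of simple epithelia. Krt8 read 10.84, 10.83, 10.91, 11.17, 10.80 and 11.11 in H2be-KO replicates 1 to 6. In WT it read 10.98, 10.79, 11.11, 10.87, 10.83 and 11.08. Both genotypes held high arrays (H2be-KO replicates 4 and 6, WT replicates 3 and 6) and low ones, and the groups overlapped. The difference was -0.0011 with a standard error of 0.09 (95% interval -0.20 to 0.20, n = 6 each, exact permutation p = 0.991).

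Krt18 read 11.43, 11.33, 11.44, 11.61, 11.32 and 11.62 in H2be-KO. In WT it read 11.42, 11.36, 11.59, 11.35, 11.47 and 11.54. The same 4 arrays as for Krt8 were the highest. The difference was 0.0018 with a standard error of 0.08 (95% interval -0.17 to 0.18, n = 6 each, exact permutation p = 0.981). Of 11 other keratins tested, 0 passed in either direction and 3 had a positive difference, with a median of -0.14. Those of smallest p were Krt14, a basal cell keratin, at 8.62 ± 0.13 against 8.87 ± 0.33 (exact permutation p = 0.0779, n = 6 each), Krt20, Krt4 and Krt5, with differences of 0.27, -0.23 and -0.13.

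Cbr2 encodes a carbonyl reductase that reduces aldehydes and ketones. Its signal varied least among the members. The H2be-KO arrays read 13.01, 12.95, 12.88, 13.04, 12.91 and 13.03, and the WT arrays 12.98, 13.03, 12.96, 12.92, 12.95 and 12.99. The highest and the lowest array differed by 0.16, or 1.12-fold. The standard deviation over 12 arrays was 0.05, and 0.0533% of tested probe sets had one as small. Bright probe sets varied less than others in general. Those with a mean of 12 or more (251) had a median standard deviation of 0.09 against 0.20 over all, and 3.19% of them had one as small as that of Cbr2. Whether signals near the top of the scale are compressed was not tested. The difference between genotypes was 0.0009 with a standard error of 0.07 (95% interval -0.14 to 0.14, n = 6 each, exact permutation p = 0.981). Of the other carbonyl reductases, 0 of 4 passed in limma. Cbr4 read 8.65 ± 0.09 against 8.48 ± 0.19 (exact permutation p = 0.0325, limma unadjusted p = 0.0874, n = 6 each), while Cbr1, Cbr3 and Dcxr had differences of 0.07, 0.16 and -0.06.

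Muc2 encodes a gel-forming mucin, best known from goblet cells of the gut. It read 10.05, 10.21, 10.63, 10.19, 10.50 and 10.05 in H2be-KO. It read 9.98, 10.57, 10.20, 10.65, 10.22 and 10.13 in WT. Each genotype had 2 arrays at 10.50 or above, H2be-KO replicates 3 and 5 and WT replicates 2 and 4. The difference was -0.02 with a standard error of 0.13 (95% interval -0.31 to 0.26, n = 6 each, exact permutation p = 0.831). Of 16 other mucins and goblet cell genes, 0 were higher and 1 was lower, beside 3.78% and 1.77% of all probe sets, with a median difference of -0.16. That gene was Clca1, a secreted goblet cell protein, at 5.92 ± 0.07 against 7.34 ± 1.68 (exact permutation p = 0.0541, limma unadjusted p = 0.0243, n = 6 each). The H2be-KO arrays read 5.82 to 6.02, and WT replicates 1 to 6 read 7.88, 5.82, 7.94, 10.175, 5.90 and 6.33. The difference thus came mainly from WT replicates 1, 3 and 4. Tff3, Tff1 and Spdef, the next by p, had differences of -0.17, -0.39 and -0.20.

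Reg3g encodes a secreted C-type lectin that kills Gram-positive bacteria in the gut. It varied most among the members, over 0.82 on the log2 scale or 1.76-fold. The H2be-KO arrays read 11.86, 11.59, 12.29, 12.40, 11.93 and 12.38. The WT arrays read 12.03, 11.82, 12.17, 12.25, 11.995 and 12.25. In all, 3 H2be-KO arrays lay above every WT array and 1 below them all, so the H2be-KO values spread around the WT values. The difference was -0.0095 with a standard error of 0.14 (95% interval -0.31 to 0.29, n = 6 each, exact permutation p = 0.957). Of 5 other Reg lectins tested, 0 passed, with Reg3d at -0.15, Reg3b at 0.15, Reg4 at -0.05 and Reg1 at -0.05.

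Notch2 read 9.56, 9.65, 9.92, 9.82, 9.93 and 9.91 in H2be-KO. In WT it read 9.66, 9.85, 9.70, 10.18, 9.92 and 9.94. Replicates 1 and 2 of H2be-KO lay below every WT array, and WT replicate 4 lay above all others. The means were 9.80 ± 0.16 and 9.88 ± 0.19 (SD, n = 6 each), a difference of -0.08 with a standard error of 0.10 (95% interval -0.30 to 0.14, exact permutation p = 0.426). Without WT replicate 4 the difference was -0.02.

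Hes1, the transcriptional repressor downstream of Notch, read 9.51, 9.75, 9.81, 9.79, 9.79 and 9.87 in H2be-KO. In WT it read 9.70, 9.42, 9.88, 9.76, 9.63 and 9.93. The lowest arrays were H2be-KO replicate 1 and WT replicate 2, and the groups overlapped. The difference was 0.03 with a standard error of 0.10 (95% interval -0.18 to 0.24, n = 6 each, exact permutation p = 0.723).

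**Figure D1:**
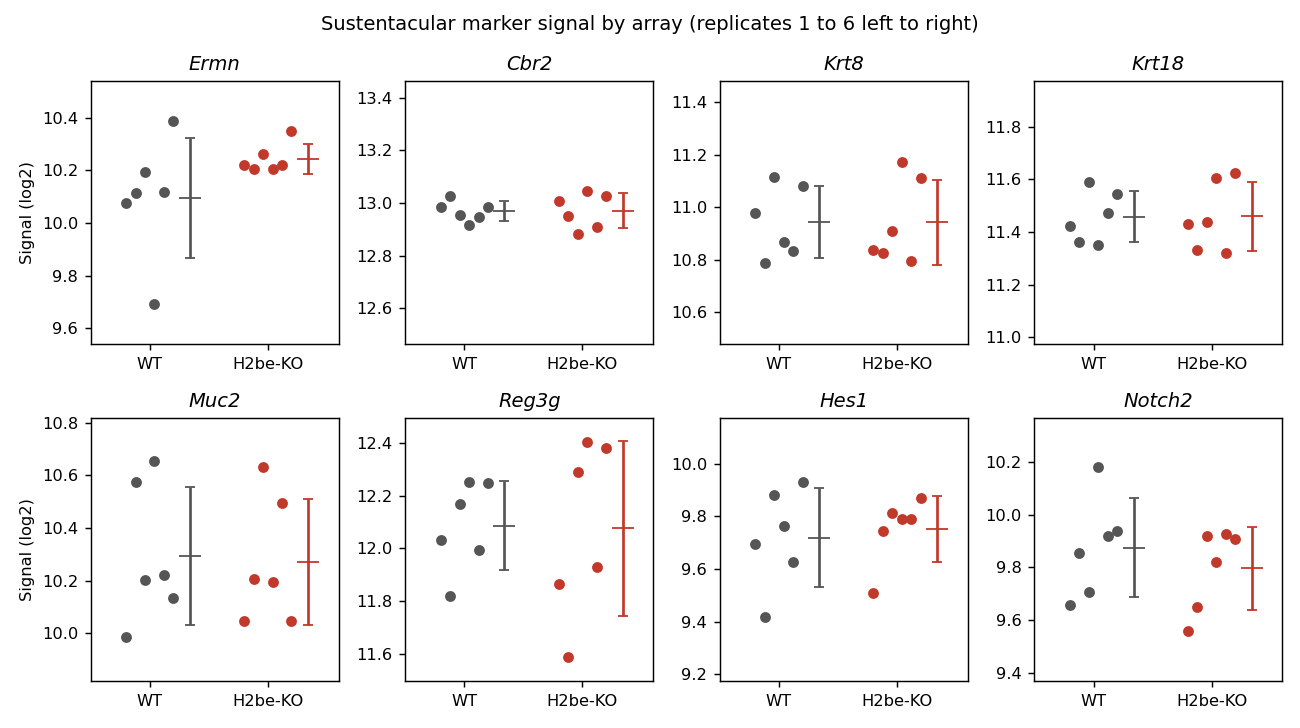
Log2 signal (vertical axis, each panel spanning 1 log2 unit) of the 8 members in the 6 WT arrays (grey) and the 6 H2be-KO arrays (red), with points in order of replicate number and the mean with its SD to the right. The genotypes overlap for every gene, Cbr2 spans 0.16 and Reg3g 0.82 over the 12 arrays, and WT replicate 4 is the low Ermn point at 9.69.

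The rest of the Notch pathway was read from 49 probe sets in 3 lists. In all, 1 was called higher and 1 lower at an unadjusted limma p under 0.05, or 1 of 49 in each direction, beside the 3.78% and 1.77% of all probe sets. Differences were positive for 17 of 49, with a median of -0.06. Among 11 receptors and ligands of the Notch family and its relatives, 0 were higher and 1 was lower. Jag2, a ligand, had means of 9.07 ± 0.14 for H2be-KO against 9.26 ± 0.14 for WT (n = 6 each, exact permutation p = 0.039, limma adjusted p = 0.753). The receptors Notch1 and Notch4 and the ligand-like Dlk2 did not pass, with differences of -0.25, -0.17 and -0.13 and standard errors of 0.13, 0.11 and 0.12.

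Among 18 genes that process, glycosylate or sort the receptors and ligands, 1 was higher and 0 were lower. Mfng, a fringe glycosyltransferase that tunes which ligand the receptor answers to, read 6.73 ± 0.29 against 6.43 ± 0.26 (n = 6 each, exact permutation p = 0.0823, limma unadjusted p = 0.05, just under the threshold, and limma adjusted p = 0.753). The ubiquitin ligase Itch, the protease Adam17 and the gamma-secretase subunit Aph1a did not pass in limma, with differences of 0.20, 0.24 and -0.15. Aph1a had an exact permutation p of 0.0498. Of the 20 nuclear partners, modulators and targets, 0 passed. Maml2, a Mastermind co-activator, Hes5, a sister of Hes1, and the Deltex genes Dtx3 and Dtx1 were nearest, with differences of -0.16, -0.14, -0.18 and -0.12. Leaving out 1 array gave 0 to 4 calls in each direction.

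Of 9 other sustentacular markers tested, 0 passed in either direction and 7 had a positive difference, with a median of 0.08. The transcription factor Pax6 had a difference of 0.11, the sulfotransferase Sult1c1 0.12, the olfactory cytochrome P450 Cyp2g1 0.08 and the lipid-binding Sec14l3 0.08, with standard errors of 0.07 to 0.10. Cyp2g1 read 12.85 ± 0.11 against 12.77 ± 0.05 (n = 6 each, exact permutation p = 0.121). Of 8 mature olfactory neuron genes, 0 passed, and their median difference was 0.05. Among markers of other cells, 1 of 6 horizontal basal cell genes was lower (Itgb4, an integrin, by limma with an unadjusted p of 0.0327), beside 1.77% of all probe sets. The difference was negative for 6 of 6 of these genes, with a median of -0.21 beside 0.023 over all tested probe sets. The share of negative differences over all probe sets was not counted. The groups overlapped, with a list mean of 8.08 to 8.58 in the H2be-KO arrays and 8.07 to 8.98 in the WT arrays. The highest was WT replicate 4. In addition, 0 of 8 respiratory epithelium genes passed, and 0 of 6 neutrophil genes passed, with a list mean of 8.10 to 10.01 in the H2be-KO arrays and 7.91 to 10.12 in the WT arrays.

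**Figure D2:**
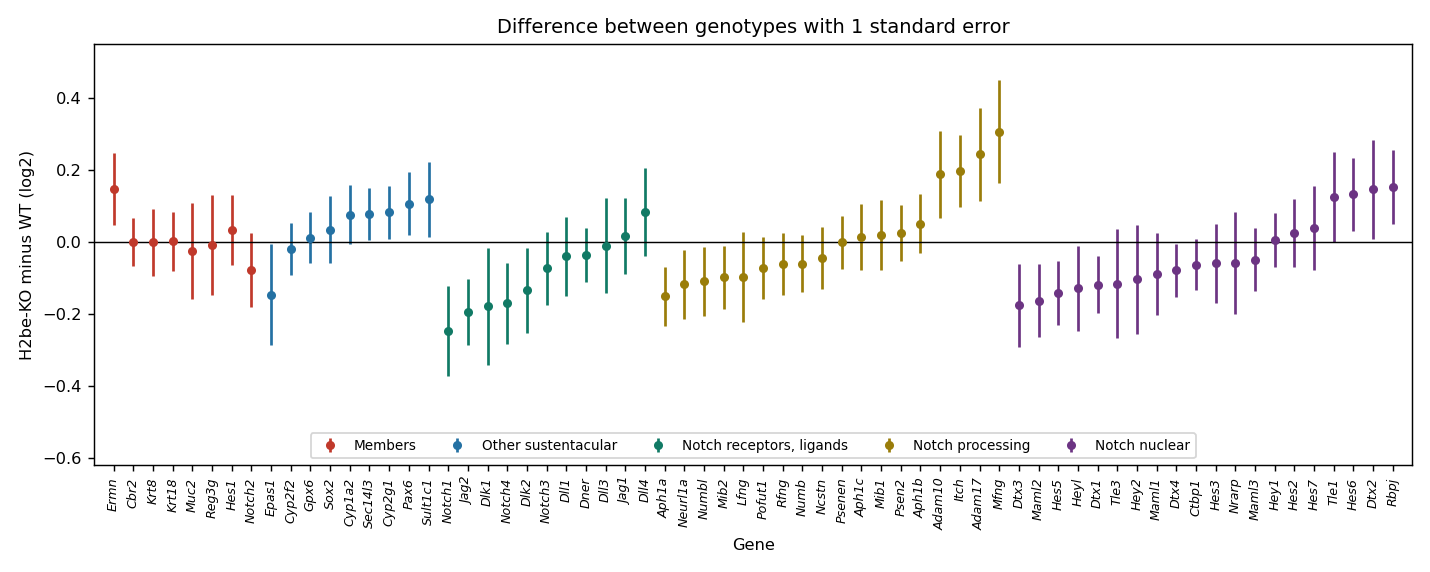
Log2 difference, H2be-KO minus WT (vertical axis), with 1 standard error, for the members (red), the other sustentacular markers (blue) and the 3 Notch lists (green, gold and purple), each other list sorted by difference. The members lie between -0.08 and 0.15, and Jag2 (-0.20) and Mfng (0.31) are the genes called among the Notch lists.

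From array to array, some of the members varied together. Of 28 pairs, 18 correlated positively and 10 negatively over the 12 arrays, with a median Pearson's r of 0.29. With permutation tests and adjustment over the 28 pairs, 6 passed before adjustment and 1 after. The permutations, here and below, treated the arrays as exchangeable. Same-numbered arrays of both genotypes were alike to some degree (described at the end), so these p-values may be too small. That pair was the filament partners Krt8 and Krt18 (r = 0.906, permutation p = 2e-04, adjusted p = 0.0056, Spearman's rho = 0.818, permutation p = 0.00181, adjusted p = 0.0307). The r was 0.852 without H2be-KO replicate 4 and WT replicate 3, the arrays farthest from the Krt8 median, and 0.885 to 0.947 when any 1 array was left out. It was 0.957 within H2be-KO (exact permutation p = 0.00694) and 0.829 within WT (exact permutation p = 0.0583, n = 6). Within the 6 arrays of low and the 6 of high Y-linked signal, which were replicates 1 to 3 and 4 to 6, it was 0.893 and 0.903 (exact permutation p = 0.0236 and 0.0319). Both genes lie on chromosome 15 with 2 RefSeq genes between them, 0 of them protein-coding.

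Reg3g followed the keratins. Its r with Krt8 was 0.755 (permutation p = 0.00579, adjusted p = 0.0811, rho = 0.811 with permutation p = 0.00219 and adjusted p = 0.0307, and r = 0.720 without the 2 farthest arrays). Within H2be-KO and WT it was 0.831 and 0.647, and it was 0.671 and 0.884 in the arrays of low and high Y-linked signal. With Krt18 the r was 0.715 (permutation p = 0.0107, adjusted p = 0.100, rho = 0.685 with permutation p = 0.0176, r = 0.543 without the 2 farthest arrays). WT replicate 4 stood off this relation, with high Reg3g and low keratins. Without it, both pairs passed, at r = 0.821 and 0.840 (permutation, adjusted p = 0.0265 and 0.0225). With the mean of the respiratory epithelium genes removed, both were lower and neither passed, at 0.412 and 0.481 (permutation, adjusted p = 0.267 and 0.201), while Krt8 and Krt18 stayed at 0.843. That mean includes the mucin Muc5ac, with an SD of 2.68 in H2be-KO and 1.92 in WT. The other genes of the list had SDs of at most 0.32, so the mean mostly followed Muc5ac. Removing a mean without Muc5ac was not tried.

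Hes1 correlated with Krt8 at 0.662 (permutation p = 0.0178, adjusted p = 0.120, rho = 0.636 with permutation p = 0.0296, r = 0.672 without the 2 farthest arrays) and with Reg3g at 0.604 (permutation p = 0.0375, adjusted p = 0.175, rho = 0.615 with permutation p = 0.0373). The Reg3g pair reached 0.825 (permutation, adjusted p = 0.0424) without H2be-KO replicates 2 and 4. Within WT these pairs were at 0.874 and 0.925, and within H2be-KO at 0.465 and 0.524. The receptor and its target, Notch2 and Hes1, gave 0.294 over all arrays (permutation p = 0.353, adjusted p = 0.495, rho = 0.427 with permutation p = 0.167, r = 0.092 without the 2 farthest arrays). Within H2be-KO the r was 0.861 and within WT 0.035, but within the arrays of low and high Y-linked signal it was 0.089 and -0.091. The difference between genotypes in any of these correlations was not tested.

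Muc2 did not follow this group. It went with Notch2 at 0.647 (permutation p = 0.0214, adjusted p = 0.120, rho = 0.580 with permutation p = 0.0514), and the r was 0.50 without WT replicate 4 and 0.432 without that array and H2be-KO replicate 3. Within the arrays of low and high Y-linked signal it was 0.936 and 0.752, and with the Y-linked mean removed 0.863 (permutation, adjusted p = 0.00588). Against Cbr2 it ran opposite, at -0.571 (permutation p = 0.0549, adjusted p = 0.220, rho = -0.622 with permutation p = 0.0345, r = -0.453 without the 2 farthest arrays), and at -0.816 without WT replicate 2 (permutation, adjusted p = 0.0288). Within H2be-KO that r was -0.885 and within WT -0.142, and after quantile normalization it was -0.19 (permutation p = 0.554). Ermn correlated with no member beyond 0.480 in size.

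**Figure D3:**
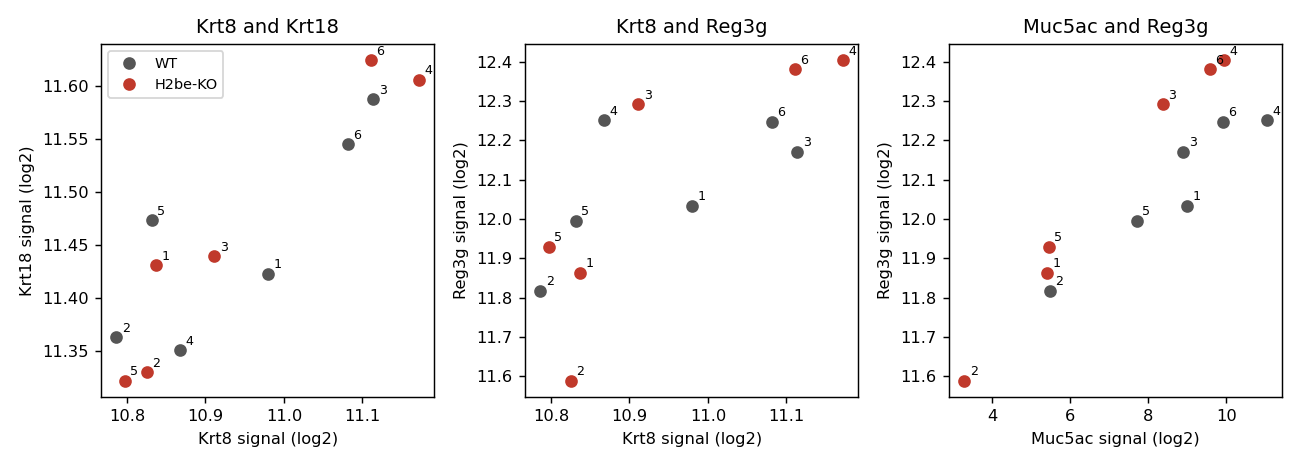
Log2 signal of Krt18 against Krt8, Reg3g against Krt8 and Reg3g against Muc5ac, 1 point per array, numbered by replicate (WT grey, H2be-KO red). Krt8 and Krt18 rise together in both genotypes (r = 0.906), and WT 4 lies above the others of like Krt8 signal in the Reg3g panel.

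The members were also set against the array means of 12 marker lists, 96 relations in all, chosen after values had been seen. By Pearson's r, 1 of 96 passed after adjustment. Reg3g correlated with the mean of 8 respiratory epithelium genes at r = 0.919 (permutation p = 6e-05, adjusted p = 0.00576, rho = 0.874 with permutation p = 0.00043 and adjusted p = 0.0189, r = 0.853 without the 2 farthest arrays). The r was 0.984 within H2be-KO and 0.941 within WT. The list includes Muc5ac, an airway goblet cell mucin. Without Muc5ac the r was 0.678 (permutation p = 0.0151), and it was 0.368 when the 2 farthest arrays were also left out.

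Muc5ac read 5.41, 3.29, 8.37, 9.94, 5.45 and 9.58 in H2be-KO. It read 8.99, 5.48, 8.89, 11.05, 7.71 and 9.91 in WT. The arrays high in Reg3g (replicates 3, 4 and 6 of both genotypes) had Muc5ac at 8.37 or above, as did WT replicate 1, and H2be-KO replicate 2 was lowest in both genes. The pair gave r = 0.911 (permutation p = 7e-05 before adjustment, rho = 0.846 with permutation p = 0.00091, r = 0.853 without the 2 farthest arrays), 0.994 within H2be-KO and 0.945 within WT, and 0.914 and 0.838 in the arrays of low and high Y-linked signal. Between genotypes Muc5ac did not pass (exact permutation p = 0.255, n = 6 each). How much respiratory tissue each dissection held was not measured, and its part in the Reg3g signal was not tested.

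With the 9 other sustentacular markers, Hes1 and Reg3g correlated at 0.783 and 0.782 (permutation p = 0.00286 and 0.00223, adjusted p = 0.0686 each) and Krt8 at 0.665 (permutation p = 0.0188, adjusted p = 0.180). By rho these were 0.860, 0.839 and 0.790 (permutation, adjusted p = 0.0189, 0.0254 and 0.0469). Correlations of like size were found with other lists. By rho, Krt8 also passed with the respiratory epithelium genes (0.797, r = 0.694) and with the other keratins (0.797, r = 0.63), both with a permutation, adjusted p of 0.0451, and Reg3g with the other keratins (0.874, r = 0.820, permutation, adjusted p = 0.0189). The keratin mean held 12 genes, among them Krt6a, which was below the filter. Its most variable genes were Krt15 (SD 0.90 in H2be-KO and 1.02 in WT) and Krt6a (0.89 and 0.93). A keratin mean without these genes was not tried. Against the respiratory list without Muc5ac, Krt8 gave r = 0.519 (permutation p = 0.0856) and rho = 0.573 (permutation p = 0.055). That r was 0.298 when the 2 farthest arrays were also left out. With the sustentacular list, Krt18 gave 0.616, Ermn 0.390, Notch2 0.246, Muc2 -0.114 and Cbr2 -0.130, none passing the adjustment in either measure. The value of Cbr2 joined opposite ones, -0.892 in the arrays of low and 0.667 in those of high Y-linked signal (n = 6 each). Against the Notch receptors and ligands, Ermn ran opposite at -0.869 (permutation p = 0.00402, adjusted p = 0.0772, rho = -0.615). That r was -0.569 without the 2 farthest arrays, 0.117 within H2be-KO and -0.92 within WT. Notch2 went with the Notch nuclear list at 0.730 (permutation p = 0.00752, adjusted p = 0.103, rho = 0.678), and at 0.305 without the 2 farthest arrays. Neither passed the adjustment in either measure.

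**Figure D4:**
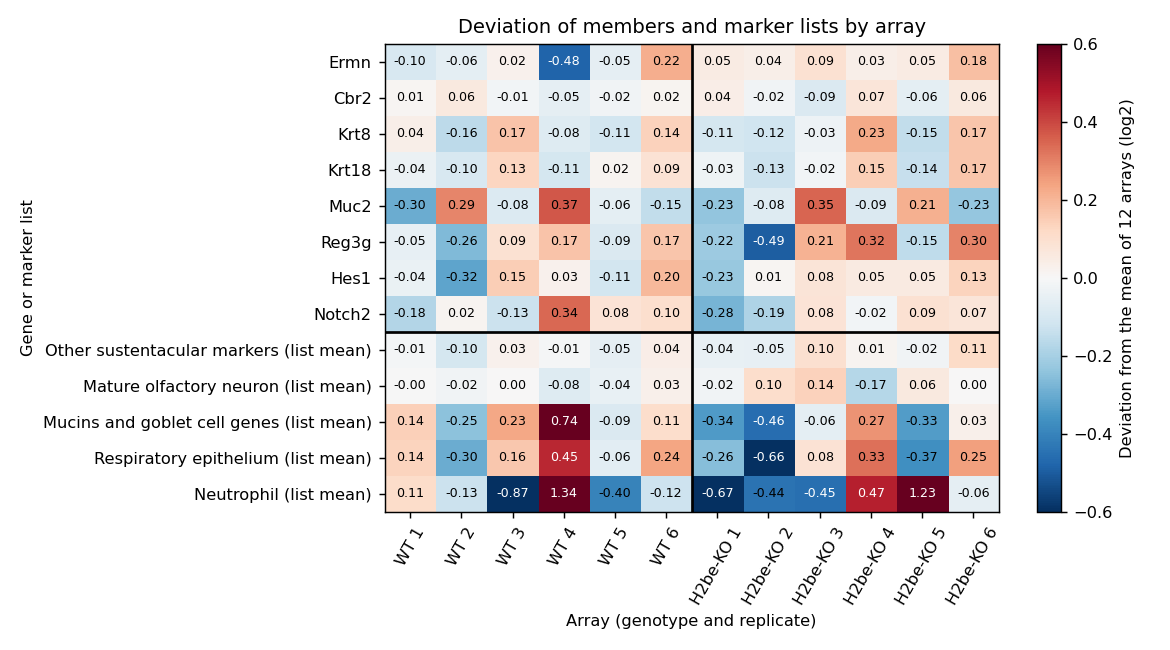
Deviation of each member, and below the line of 5 marker list means, from its mean over the 12 arrays (log2, red higher and blue lower, colours held at 0.6 in size beyond that value) by array. WT 4 is low for Ermn (-0.48) and high for Notch2 (0.34), and Krt8, Krt18 and Reg3g are all above their means in WT 3, WT 6, H2be-KO 4 and H2be-KO 6.

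For each member the 3 genes most like it over the 12 arrays were taken by Pearson's r from 20027 probe sets with a single symbol. These are the top of many comparisons and carry no test. Krt8 was nearest to Sdc1, an epithelial heparan sulfate proteoglycan (0.942), Ttc29 (0.939) and Bbox1, an enzyme of carnitine synthesis (0.934). Krt18 was nearest to Gabrp, a GABA-A receptor subunit (0.967), the stress-response gene Nupr1 (0.952) and Grhl2, an epithelial transcription factor (0.943). Reg3g was nearest to Dhrs9, a retinol dehydrogenase (0.974), the potassium channel Kcnk5 (0.959) and the actin-capping Capg (0.959).

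Hes1 was nearest to Desi1 (0.925), the retinoblastoma relative Rbl2 (0.923) and the small nucleolar RNA Snord58b (0.922). Notch2 was nearest to Mfsd6 (0.940), the cullin Cul7 (0.932) and the insulin receptor Insr (0.927). Ermn was nearest to the ubiquitin ligase Marchf7 (0.979), Poglut1, which adds O-glucose to Notch receptors (0.978), and the zinc finger gene Zfp729b (0.970). Muc2 was nearest to Zfy1, a Y-linked zinc finger gene (0.935), Hectd4 (0.891) and Sh3pxd2a (0.882), and Cbr2 to Mettl27 (0.903), Sdhaf1 (0.884) and the sulfatase Arsg (0.880). Muc2 read 9.98 to 10.63 in replicates 1 to 3 of both genotypes and 10.05 to 10.65 in replicates 4 to 6. Its likeness to the Zfy1 probe set was thus not a split by Y-linked signal like that of Uty.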

How the data were processed

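RNA from whole MOE was measured on Affymetrix Mouse Gene ST arrays. The authors checked scanner files with arrayQualityMetrics, summarised probes with IterPLIER and used sketch-quantile normalization, both in Affymetrix Expression Console (version not given in the sources used here). Each array's deposited file column holds log2 signals. Because of the normalization, a shift shared by most transcripts would largely have been removed before deposition. The array medians still ran from 7.84 to 7.90. Arrays hold no molecule counts, and their number limits precision. Groups came from the sample titles. No batch or date was given.

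Names came from the platform's own annotation. Of 35556, 6612 controls were left out, and 28944 remained (21789 with 1 symbol, 1621 with several, 5534 with none). Probe sets with a mean above 5 (28151) were fitted with limma 3.58.1 in R 4.3.3 (genotype only, lmFit and eBayes, two-sided, Benjamini-Hochberg), and standard errors, intervals and unadjusted p-values are limma's. Members carry the two-sided exact permutation p over all 924 choices of 6 of 12 arrays (smallest possible 0.0022). Correlations used 100000 permutations, or all 720 orders within 6 arrays. Scripts were tested on simulated data. Members and lists were chosen with earlier results of these data known. Named genes are the members, up to 4 genes of smallest p per list described, the 3 most like each member, H2be, and Amelx, Xist, Uty and Muc5ac, chosen after their values were seen. Listed genes without a matched probe set of a single symbol, among them Cyp2a5, Ugt2a1 and Ugt2a2, were not analysed here. Alternatives covered the filter, a floor, quantile and median scaling, the replicate number as a block, Y-linked signal, array weights, moderation, averaging by symbol, exact tests, rank correlation, removed list means and each array left out. The labels do not say that a replicate number marks a shared litter or day. Separate animals were pooled for each array.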

Additional observations from a re-analysis of the deposited data

Results flagged for a closer look

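Hes1 in H2be-KO replicate 1 read 9.51, while the other 5 H2be-KO arrays lay between 9.75 and 9.87. Its gap to the nearest array was 0.661 of the range of the group, past Dixon's 95% value for 6 samples. It was the only one of 16 groups (8 genes in 2 genotypes) to pass, where chance passes about 1 in 20. Without this array the Hes1 difference was 0.08 in place of 0.03, and limma's unadjusted p stayed above 0.05. Amelx was at 11.87 in the same array, and its part in the Hes1 value was not tested.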

How the results depend on the processing

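No member's difference passed an unadjusted p of 0.05 in any setting tried other than leaving out WT replicate 6 (Ermn, 0.21). Counts over all probe sets moved more. Those higher in H2be-KO (1065) were 2039 with the replicate number as a block, 2694 with array weights, 624 averaged by symbol and 513 to 2265 with 1 array left out (the H2be-KO arrays left out gave 513 for replicate 5, 589 for replicate 3 and 2235 for replicate 4, and WT replicate 6 gave 2265). Those lower (498) were 899 with quantile normalization, 951 with the block, 1405 with array weights and 313 to 1552 with 1 array left out (313 without WT replicate 4, 323 without H2be-KO replicate 5, 1552 without WT replicate 6). Notch genes called higher (1) were 0 without the filter, with quantile normalization, with median centring, with the Y-linked covariate and without H2be-KO replicates 1 and 6 together, 3 with the block, 4 with array weights, 2 with trend and robust moderation and 0 to 4 with 1 array left out. Notch genes called lower (1) were 2 with quantile normalization, 2 with the block, 5 with array weights, 0 without H2be-KO replicates 1 and 6 together and 0 to 4 with 1 array left out. The cause was not tested. Settings on Amelx, on Y-linked signal in correlations and on removed list means were chosen after seeing the data.

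Member pairs passing the adjustment (1) were 2 with median centring, 2 by Spearman's rho, 2 without the farthest arrays, 2 with the Y-linked mean removed, 5 with the mucin and goblet mean removed, 5 with the respiratory mean removed, and 1 to 3 with 1 array left out (2 without WT replicate 2, 3 without WT replicate 4). They were 0 within H2be-KO, within WT and within the arrays of high or of low Y-linked signal, where only 6 arrays entered. Ermn paired with Krt8 at 0.902 with the mucin and goblet mean removed, against 0.364 before.

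Same-numbered H2be-KO and WT arrays deviated together at r of 0.025 to 0.592, all positive, and 4 of 6 were nearest their own number. They were also alike in Xist and Uty signal. Arrays of most numbers were thus alike to some degree, which the main fit and the permutations of the correlations left out. The numbers were not treated as pairs in the main fit only because r was not above 0.1 for all. Fitting the number as a block gave 2039 probe sets higher and 951 lower, against 1065 and 498. What else the numbers share was not tested. With the replicate block no member passed (Ermn 0.15, unadjusted p = 0.113).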
